A study of Mus musculus with 30 samples.

Results

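Calcium enters the cytosol of a B cell either through channels in the plasma membrane or out of the endoplasmic reticulum, and calmodulin-dependent kinases read the rise. 10 genes of this system were followed across the 30 libraries of the series: 2 voltage-gated channel subunits (Cacna1e and Cacna1f), 3 receptors for inositol trisphosphate (Itpr1, Itpr2 and Itpr3), the calcium pump Atp2a3 and 4 calmodulin-dependent kinase genes (Camk2a, Camk2d, Camk2g and Camk4). They were taken by name from the 55401 gene rows of the count table. The question arose in the study from verapamil, a drug that acts both on the efflux pump Abcb1 and on L-type channels.

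Each library came from 1 line of the mouse Eµ-Myc; p19ARF -/- lymphoma cell line, in which the immunoglobulin heavy chain enhancer drives Myc and the tumour suppressor p19ARF is absent, and every group shared that genotype. The 17 paclitaxel lines were raised in separate wells, each seeded with 10000 cells, through 12 to 18 weekly cycles of 3 days with paclitaxel, a drug that stabilizes microtubules, at a dose meant to kill 85% of cells, followed by 4 days of recovery. The 12 DMSO lines went through the same cycles with the solvent, and 1 library came from the parental line, whose treatment label is N/A. Each line descended from the same parental line and was sequenced once, so the spread between libraries of a group holds both the difference between lines and the technical error, and fewer cells with a transcript cannot be told apart from less of it per cell.

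Total counts ran from 1053948 to 6739131 in the DMSO libraries and from 480919 to 6682169 in the paclitaxel libraries, and the parental library held 1851837. All 12 B cell markers examined were above 1 CPM (counts per 1e6 counts) in most DMSO and paclitaxel libraries, against 2 of 8 T cell markers, 1 of 8 myeloid, 1 of 5 erythroid and 0 of 6 fibroblast markers. 4 libraries went against their labels: over all genes tested, those labelled DMSO 11 and DMSO 12 correlated better with the mean of the paclitaxel libraries, and those labelled Pac C1 and Pac H9 better with the mean of the DMSO libraries. Libraries are therefore named by their labels throughout, and results that rest on those labelled DMSO 12 and Pac H9 are given with and without them. That pair was fixed for leaving out because earlier results of these data had shown both nearer to the other treatment, so that leaving them out sets the groups apart by construction. Whether labels were exchanged or shifted between neighbouring libraries was not tested, and the name of every line given here, the parental one included, rests on its label. Levels are CPM after TMM scaling, which evens out library composition. The reads came from the 3′ ends of transcripts, so that these levels were not divided by transcript length and are compared between libraries, not between genes.

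Voltage-gated calcium channels open when the membrane depolarizes and are best known from nerve, muscle and retina. The receptors for inositol trisphosphate sit in the membrane of the endoplasmic reticulum and release its calcium once the B-cell receptor has set off phospholipase C, and the pump encoded by Atp2a3, SERCA3, returns calcium to that store. Calmodulin binds calcium and switches on the kinases of the CaMKII family, whose alpha, delta and gamma chains are the products of Camk2a, Camk2d and Camk2g, and CaMKIV, the product of Camk4.

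Promoter windows from RefSeq, of 300 bases with 250 before and 50 after the start site, were at hand for 6 of the 10 genes. Those of Cacna1f, the gene with the widest spread between lines, and of Itpr2, Itpr3 and Atp2a3, whose levels moved together across lines, are shown on build GRCm38.p6, 5′ to 3′ on the strand of the gene. Cacna1f lies at chrX:7606853-7607152 on the plus strand, Itpr2 at chr6:146502174-146502473 on the minus strand, Itpr3 at chr17:27057054-27057353 on the plus strand and Atp2a3 at chr11:72960919-72961218 on the plus strand. Capitals mark matches, on either strand, to the E-box CACGTG, a site that Myc and other factors can bind, to TGACGT of the cAMP response element, to TGGAAA, which holds the core letters bound by NFAT, and to GAGGAA, which holds the core letters bound by Ets factors.
Cacna1f: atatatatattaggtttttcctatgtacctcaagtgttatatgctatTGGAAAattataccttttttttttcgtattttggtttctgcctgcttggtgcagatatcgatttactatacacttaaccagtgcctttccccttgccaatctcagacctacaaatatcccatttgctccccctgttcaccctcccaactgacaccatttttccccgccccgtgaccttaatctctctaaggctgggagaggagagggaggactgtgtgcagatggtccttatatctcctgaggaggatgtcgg
Itpr2: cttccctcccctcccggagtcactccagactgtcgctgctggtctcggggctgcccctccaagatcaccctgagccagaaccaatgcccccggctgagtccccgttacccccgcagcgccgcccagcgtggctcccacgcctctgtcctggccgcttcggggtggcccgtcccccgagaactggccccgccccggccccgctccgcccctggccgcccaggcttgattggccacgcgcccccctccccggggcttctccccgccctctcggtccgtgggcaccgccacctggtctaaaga
Itpr3: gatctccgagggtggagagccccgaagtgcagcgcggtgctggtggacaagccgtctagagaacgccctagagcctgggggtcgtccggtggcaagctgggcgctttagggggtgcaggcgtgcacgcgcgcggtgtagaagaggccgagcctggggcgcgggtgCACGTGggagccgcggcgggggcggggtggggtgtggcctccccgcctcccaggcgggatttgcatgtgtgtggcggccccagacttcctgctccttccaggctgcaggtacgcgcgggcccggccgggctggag
Atp2a3: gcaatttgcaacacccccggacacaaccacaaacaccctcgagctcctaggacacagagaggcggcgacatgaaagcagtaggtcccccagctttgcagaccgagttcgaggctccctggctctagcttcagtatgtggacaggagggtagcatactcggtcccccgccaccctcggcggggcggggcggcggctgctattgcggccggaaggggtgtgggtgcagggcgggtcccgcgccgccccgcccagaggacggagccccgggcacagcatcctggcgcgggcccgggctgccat
The Cacna1f window held 1 match to TGGAAA, which 21.4% of all 32851 windows hold, and the Itpr3 window held 1 match to the E-box, which 7.15% hold. None of the 4 motifs was in the windows of Itpr2, Atp2a3 and Camk2d, and the Cacna1e window held 1 match to GAGGAA, found in 28.3% of windows. TGACGT was in 7.51% of windows and in none of the 6. G and C made up 43.7% of the Cacna1f window, 73.3% of that of Itpr2, 72.3% of that of Itpr3 and 68.3% of that of Atp2a3.

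**Figure D1:**
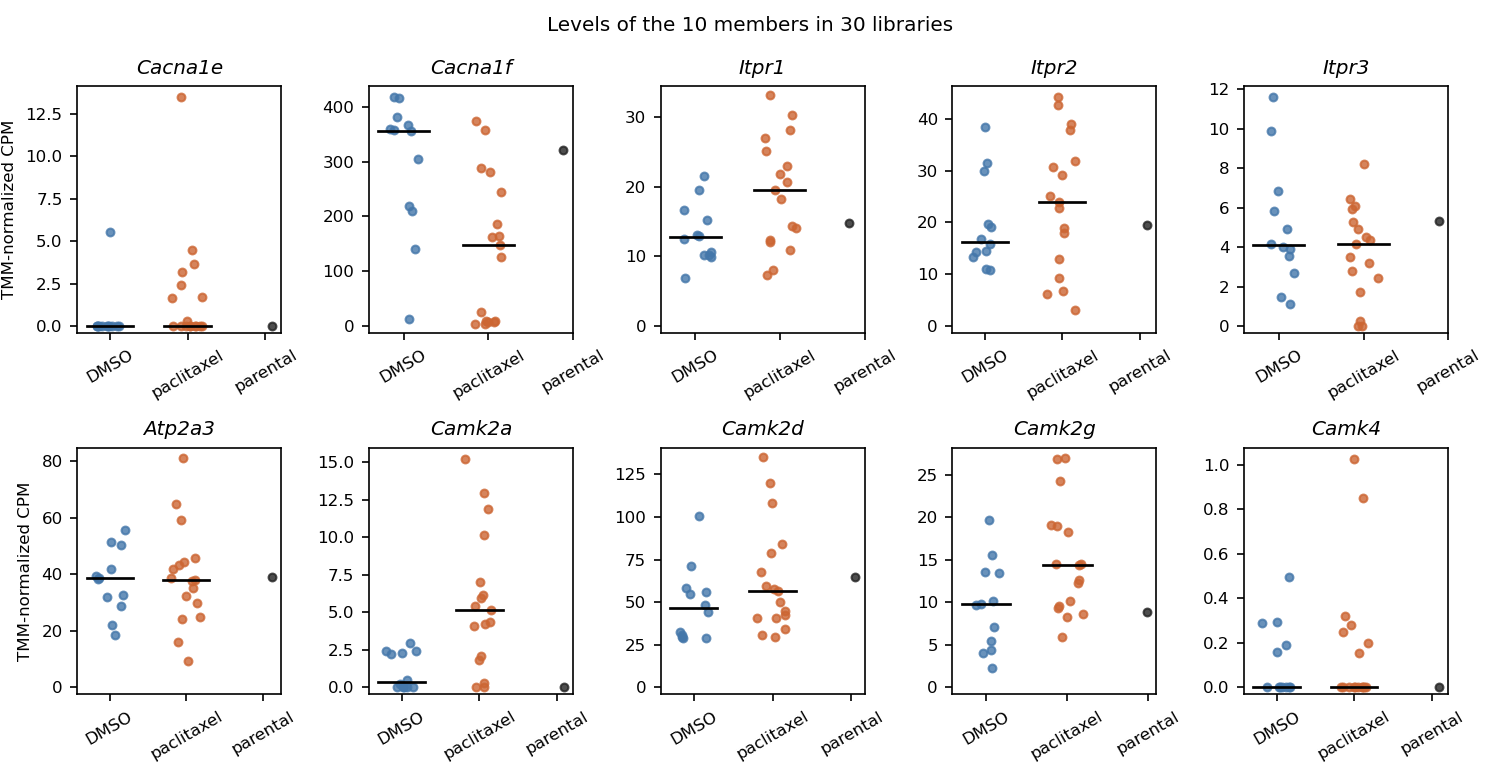
Level of each of the 10 genes in TMM-normalized CPM (vertical axis, linear, its own scale for each gene) in 12 DMSO, 17 paclitaxel and 1 parental library; each point is a library and the bar is the median of a group. Cacna1f fell into a low and a high set of lines, Cacna1e was at 0 in most libraries, and 12 of 17 paclitaxel libraries lay above every DMSO library for Camk2a.

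8 of the 10 genes passed the filter on low counts, and none of them differed between the paclitaxel and DMSO lines with the quasi-likelihood test of edgeR at an adjusted p under 0.01, by which 2.20% of the 9445 genes tested were called (0.995% higher in paclitaxel and 1.21% lower). Camk2a lay nearest, with an adjusted p of 0.016, and was called by edgeR's likelihood ratio test (adjusted p = 0.0078, 4.74% of genes called) and by DESeq2 (adjusted p = 0.0037, 5.22% of genes called). It passed the filter through the paclitaxel libraries, where it is high, so its entry into these tests was not independent of the difference. An unadjusted p under 0.05 in the quasi-likelihood test was reached by 3 of the 8, Camk2a, Camk2g and Itpr1, which is 37.5% of them, while 25.1% of all genes tested reached it. The log2 fold change, paclitaxel over DMSO, was positive for 6 of the 8, with a median of 0.36, and positive for 56.5% of all genes tested, with a median of 0.07. At an adjusted p under 0.05, which 7.55% of genes passed, Camk2a was the 1 gene of the 8 called.

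**Figure D2:**
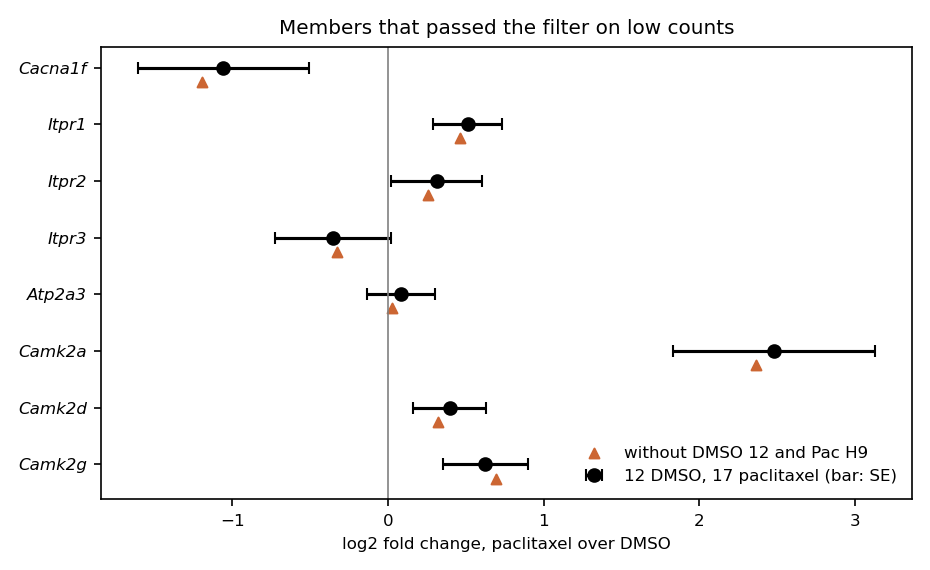
Log2 fold change of paclitaxel over DMSO lines (horizontal axis) for the 8 genes that passed the filter; circles are the fit to all 29 libraries with bars of 1 SE, and triangles the fit without the libraries labelled DMSO 12 and Pac H9. Camk2a stood highest at 2.48 and Cacna1f lowest at -1.06, and no triangle changed side.

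Cacna1f (ENSMUSG00000031142.17, chrX:7607083-7635196 on GRCm38, protein coding) encodes Cav1.4, the pore-forming subunit of an L-type channel best known from the retina, and was counted in all 30 libraries. In the DMSO libraries its level ran from 12.1 CPM through a median of 357 CPM to 418 CPM, and in the paclitaxel libraries from 4.11 CPM through a median of 148 CPM to 374 CPM. The levels fell into a low and a high set with none between 25.8 and 127 CPM, a 4.91-fold gap. The low set held 7 of the 17 paclitaxel libraries, those labelled Pac A6, C1, D4, D10, E1, F10 and G9, and 1 of the 12 DMSO libraries, that labelled DMSO 12. The parental library, at 322 CPM, lay with the other 11 DMSO libraries. These counts describe the levels and were not tested, since the gap was found in the same values.

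The Cacna1f mean was 141 ± 132 CPM in the paclitaxel lines (SD, n = 17) and 295 ± 125 CPM in the DMSO lines (SD, n = 12), and its log2 fold change was -1.06 ± 0.55 (SE, adjusted p = 0.22 by quasi-likelihood in edgeR). The groups overlapped, with 6 paclitaxel libraries below every DMSO library and 0 above every DMSO library. A two-sided permutation test of the rank sum, added after the values were seen and drawn 100000 times, gave an unadjusted p of 0.0033, and 0.0012 without the libraries labelled DMSO 12 and Pac H9, where edgeR gave a log2 fold change of -1.19 (adjusted p = 0.17, 3.36% of 9567 genes called). 2 of the 17 paclitaxel libraries lay above the DMSO median. The rank-sum p-values are unadjusted and those of edgeR adjusted. Unadjusted, the quasi-likelihood test of edgeR gave p = 0.062 with every library kept, beside 0.0033 by the rank-sum permutation test. Why these differed was not tested.

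Between paclitaxel lines Cacna1f varied more than nearly all genes. Its SD of log2 CPM was 2.46 over the 17 paclitaxel libraries, and 12 of the 9445 genes tested had a larger one. Over the 12 DMSO libraries the SD was 1.41, and over the 11 without the library labelled DMSO 12 it was 0.50, beside 2.51 in the 16 paclitaxel libraries without that labelled Pac H9. A larger SD in the paclitaxel than in the DMSO lines was the usual case: it held for 87.2% of all genes tested and for 7 of these 8, with Camk2g as the exception.

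**Figure D3:**
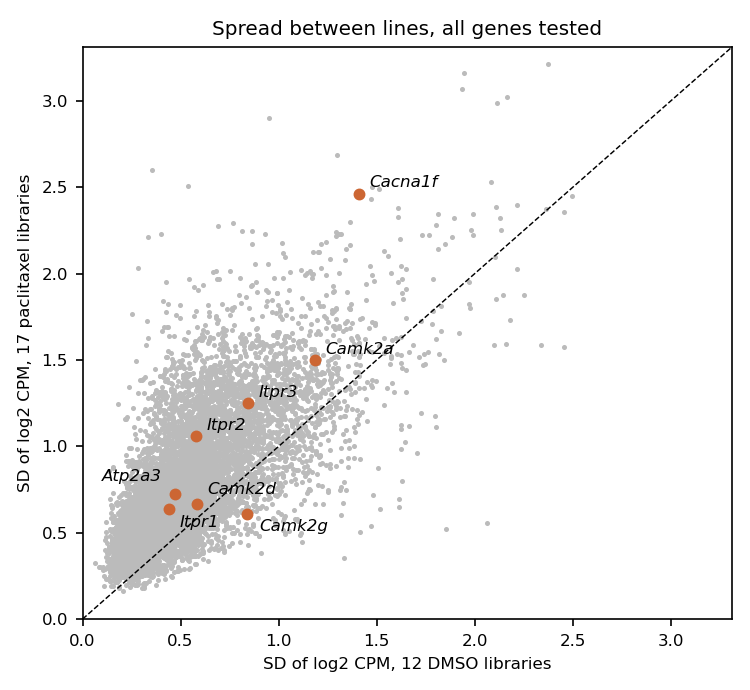
SD of log2 CPM between the 17 paclitaxel libraries (vertical axis) against that between the 12 DMSO libraries (horizontal axis) for the 9445 genes tested (grey) and the 8 genes described (orange); the dashed line marks equal SDs. Cacna1f, at 1.41 and 2.46, lies near the top of all genes, and Camk2g lies below the line.

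Cacna1e (ENSMUSG00000004110.17, chr1:154390731-154884501, protein coding) encodes Cav2.3, the pore-forming subunit of the R-type channel, and was too low for the edgeR filter. Reads were found in 8 of the 17 paclitaxel libraries and in 1 of the 12 DMSO libraries, that labelled DMSO 12, and none in the parental library. Counts were 77 in the library labelled Pac F10, 21 in Pac D4, 20 in Pac G9, 13 in Pac D7, 12 in Pac C11, 7 in Pac E1 and 2 each in Pac C3 and Pac H4, beside 11 in DMSO 12. The level reached 13.5 CPM in Pac F10, and the next highest was 5.53 CPM in DMSO 12.

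The two-sided Fisher's exact test of libraries with a Cacna1e read gave p = 0.043, and the two-sided permutation test of the rank sum of CPM gave p = 0.056, both unadjusted. Without the libraries labelled DMSO 12 and Pac H9 the reads were in 8 of 16 paclitaxel libraries and in 0 of 11 DMSO libraries, with p = 0.0082 in Fisher's exact test and p = 0.011 in the permutation test. With every library kept, the pooled level was 2.67 CPM in paclitaxel (154 reads) and 0.231 CPM in DMSO libraries (11 reads), an 11.6-fold ratio with an exact 95% counting interval from 6.28 to 23.6. A total of 0 reads over the 11 DMSO libraries other than DMSO 12 allows up to 3 reads, or 0.0659 CPM pooled, so that the pooled level of 2.73 CPM in the 16 paclitaxel libraries was at least 41.4-fold higher. The interval and this bound cover counting error only, and the bound rests on leaving out the 1 DMSO library that held Cacna1e reads. The library labelled Pac F10 held 77 of the 154 paclitaxel reads. When every library was thinned to 480919 counts, the reads remained in 5 of 17 paclitaxel and 1 of 12 DMSO libraries (p = 0.35 in Fisher's exact test), while the difference in mean level was 1.42 CPM, beside 1.35 CPM with all counts. A difference of this size did not pass either test at the depth of the shallowest library.

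**Figure D4:**
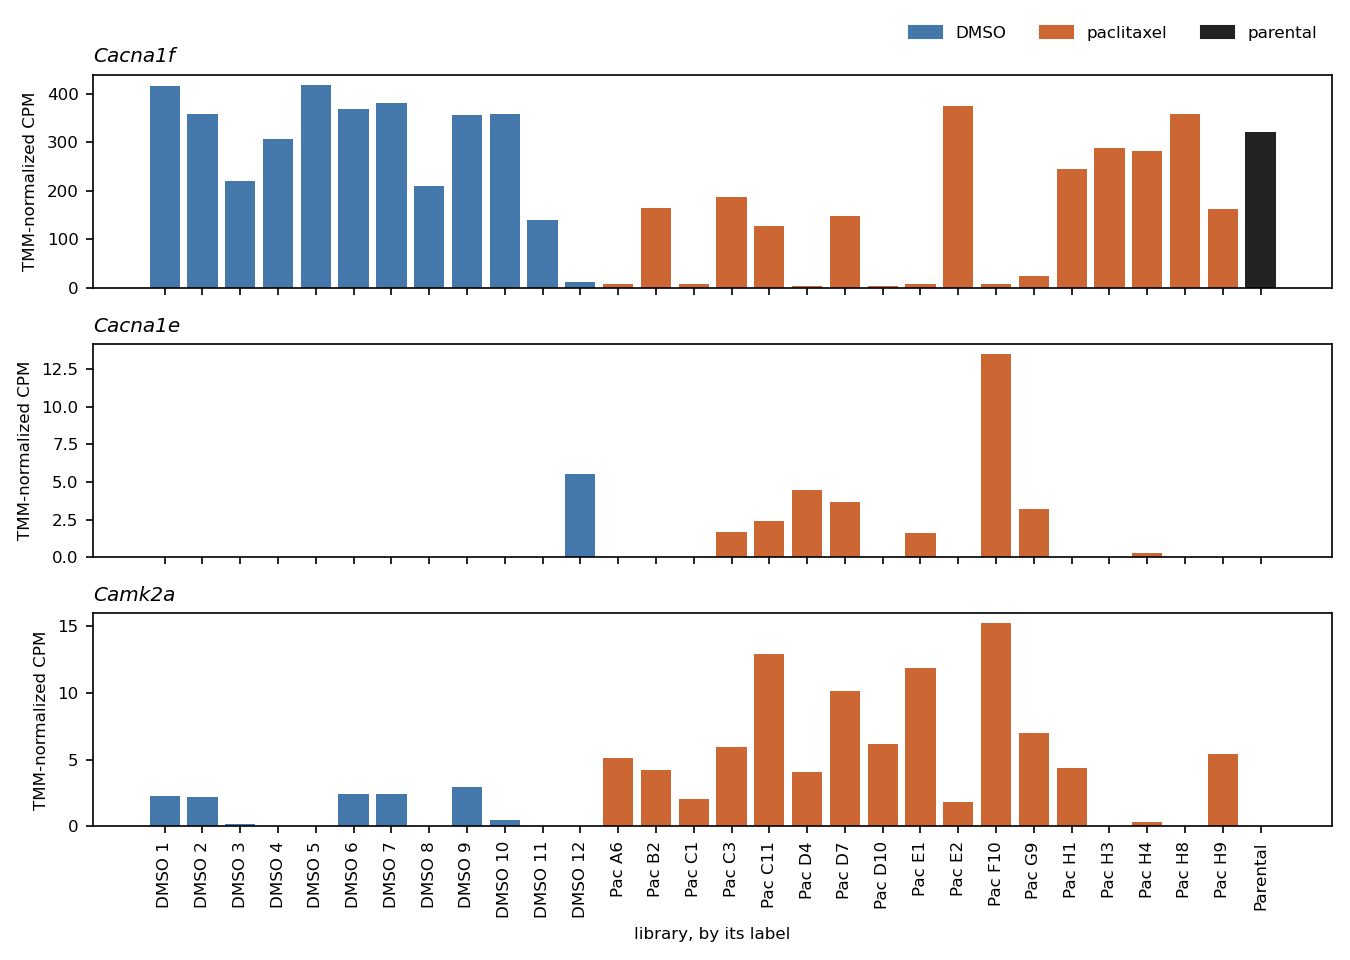
Level of Cacna1f, Cacna1e and Camk2a (vertical axes, TMM-normalized CPM, from 0) in each of the 30 libraries by label; bars are blue for DMSO, orange for paclitaxel and black for parental. The library labelled DMSO 12 is the 1 DMSO library with a low Cacna1f bar, at 12.1 CPM, and with a Cacna1e bar, at 5.53 CPM.

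Of the receptors for inositol trisphosphate, Itpr1 (ENSMUSG00000030102.11, chr6:108213096-108551109) ran from 6.94 CPM through a median of 12.7 CPM to 21.5 CPM in the DMSO libraries. In the paclitaxel libraries it ran from 7.24 CPM through a median of 19.6 CPM to 33.1 CPM, and 7 of the 17 lay above every DMSO library. Its log2 fold change was 0.51 ± 0.22 (SE, adjusted p = 0.15 by quasi-likelihood in edgeR). The added rank-sum permutation test gave p = 0.040 unadjusted, and 0.080 without the libraries labelled DMSO 12 and Pac H9. With every library thinned to 480919 counts the log2 fold change was 0.23 (adjusted p = 0.58 in edgeR) and the rank-sum p was 0.59.

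Itpr2 (ENSMUSG00000030287.15, chr6:146108299-146502223) ran from 10.7 CPM through a median of 16.3 CPM to 38.5 CPM in the DMSO libraries and from 3.04 CPM through a median of 23.9 CPM to 44.3 CPM in the paclitaxel libraries. The paclitaxel lines lay on both sides of the DMSO range, with 3 above it and 4 below it, and the log2 fold change was 0.31 ± 0.29 (SE, adjusted p = 0.52 in edgeR). Its SD of log2 CPM was 1.06 in paclitaxel and 0.58 in DMSO libraries, and 78.4% of genes tested had a smaller one in paclitaxel. The highest levels were in the libraries labelled Pac G9 and Pac F10 and the lowest in Pac E1 and Pac C1.

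Itpr3 (ENSMUSG00000042644.9, chr17:27057304-27122223) had the fewest reads of the receptors, at most 80 in a library. It ran from 1.13 CPM through a median of 4.09 CPM to 11.6 CPM in the DMSO libraries and from 0 through a median of 4.17 CPM to 8.21 CPM in the paclitaxel libraries. It had no read in the libraries labelled Pac C1 and Pac H9, which held 480919 and 1143797 counts in total. Its log2 fold change was -0.35 ± 0.37 (SE, adjusted p = 0.58 in edgeR), with a 95% interval from -1.08 to 0.37. It was -0.11 (adjusted p = 0.87) without the library labelled DMSO 11, the highest for this gene.

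Atp2a3 (ENSMUSG00000020788.15, chr11:72961169-72993044) ran from 18.6 CPM through a median of 38.5 CPM to 55.4 CPM in the DMSO libraries and from 9.36 CPM through a median of 38.0 CPM to 81.2 CPM in the paclitaxel libraries. The medians were nearly equal and the groups overlapped, with 3 paclitaxel libraries above the DMSO range and 2 below it. The log2 fold change was 0.08 ± 0.22 (SE, adjusted p = 0.84 in edgeR), with a 95% interval from -0.34 to 0.51, and it was -0.03 without the library labelled Pac F10, the highest.

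The level of the pump rose with those of Itpr2 and Itpr3 across lines. Its correlation with Itpr1 was lower, a difference that was not tested. After each gene was centred within its treatment over the 29 libraries, Atp2a3 and Itpr2 had a Pearson r of 0.77 (Spearman rho 0.76), or 0.69 without the 2 libraries farthest from the median of Atp2a3. Over the 9445 genes tested, 2 had a higher r with Atp2a3 than Itpr2 had. The r was 0.57 between Atp2a3 and Itpr3, 0.65 between Itpr2 and Itpr3, and 0.27 between Atp2a3 and Itpr1. These values are descriptions over libraries that share their preparation and vary in depth, and the Spearman rho of the level with the total count was 0.11 for Atp2a3, 0.22 for Itpr2 and 0.11 for Itpr3.

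**Figure D5:**
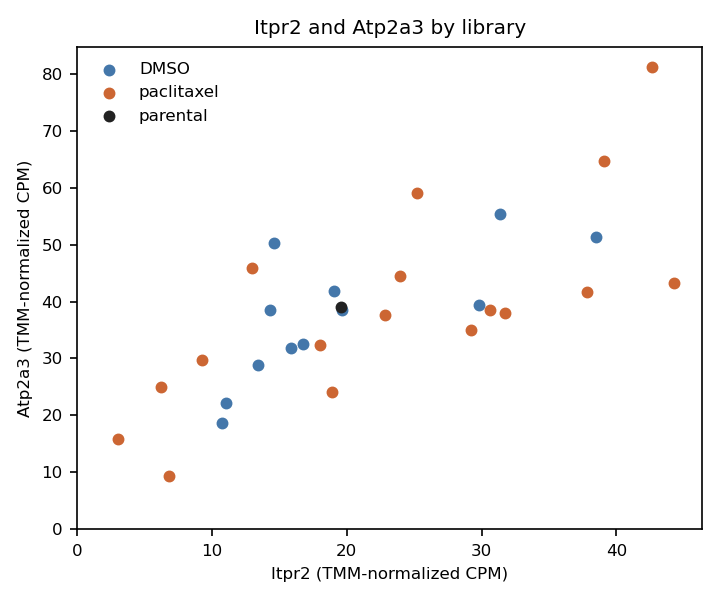
Level of Atp2a3 (vertical axis) against Itpr2 (horizontal axis), both in TMM-normalized CPM, with a point for each of 12 DMSO, 17 paclitaxel and 1 parental library. The levels tended to rise together. The library labelled Pac F10 was highest for Atp2a3, at 81.2 CPM with 42.7 CPM of Itpr2. That labelled Pac G9 was highest for Itpr2, at 44.3 CPM with 43.2 CPM of Atp2a3.

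Among the kinases, Camk2a (ENSMUSG00000024617.16, chr18:60925618-60988152) encodes the alpha chain of CaMKII, best known from nerve cells. In the DMSO libraries its level ran from 0 through a median of 0.35 CPM to 2.96 CPM, with reads in 7 of 12 and at most 12 reads in a library. In the paclitaxel libraries it ran from 0 through a median of 5.13 CPM to 15.2 CPM, with reads in 15 of 17 and at most 87 in a library. 12 of the 17 paclitaxel libraries lay above every DMSO library, while those labelled Pac H3 and Pac H8 held no read. The parental library held none.

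The Camk2a log2 fold change was 2.48 ± 0.65 (SE, adjusted p = 0.016 by quasi-likelihood in edgeR), and 2.37 without the libraries labelled DMSO 12 and Pac H9 (adjusted p = 0.023). The gene passed the filter on low counts through the paclitaxel libraries, 12 of which lay above the highest DMSO level of 2.96 CPM. Without the filter the log2 fold change was 2.43 (adjusted p = 0.024 by quasi-likelihood in edgeR, 1.04% of genes called). The added rank-sum permutation test gave p = 0.0020 unadjusted, and 0.016 with every library thinned to 480919 counts, where the gene was too low for edgeR. The two-sided Fisher's exact test of libraries with a Camk2a read gave p = 0.092, with 0.19 without the libraries labelled DMSO 12 and Pac H9 and 0.12 after thinning. The 4 highest levels were in the libraries labelled Pac F10, Pac C11, Pac E1 and Pac D7, and each of these also held Cacna1e reads. The library labelled DMSO 12, second highest for Cacna1e, held no Camk2a read, and Pac H4, with 2 Cacna1e reads, had a Camk2a level of 0.307 CPM. Both genes are low, and the 2 sets of reads were not tested for association.

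Camk2g (ENSMUSG00000021820.18, chr14:20734875-20794088), which encodes the gamma chain, ran from 2.34 CPM through a median of 9.77 CPM to 19.7 CPM in the DMSO libraries and from 5.98 CPM through a median of 14.4 CPM to 26.99 CPM in the paclitaxel libraries. 12 of the 17 paclitaxel libraries lay above the DMSO median and 3 above every DMSO library. The log2 fold change was 0.62 ± 0.27 (SE, adjusted p = 0.15 in edgeR). It was 0.82 (adjusted p = 0.049) without the library labelled DMSO 11, the highest of the DMSO libraries and 1 of the 4 that went against their labels. That was the lowest adjusted p for Camk2g over leaving out each library, which ran up to 0.25 in edgeR. The same fit called 3.15% of all genes, the highest share of these fits. The rank-sum p was 0.046 unadjusted, and 0.22 after thinning.

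Camk2d (ENSMUSG00000053819.16, chr3:126596302-126846326), which encodes the delta chain, ran from 28.7 CPM through a median of 46.3 CPM to 101 CPM in the DMSO libraries and from 29.8 CPM through a median of 56.8 CPM to 135 CPM in the paclitaxel libraries. Its log2 fold change was 0.40 ± 0.23 (SE, adjusted p = 0.29 in edgeR), or 0.60 (adjusted p = 0.090) without the library labelled DMSO 11. Over leaving out each library the adjusted p for Camk2d ran from that value up to 0.48 in edgeR. 3 of the 17 paclitaxel libraries lay above every DMSO library and 0 below. The highest DMSO library was again that labelled DMSO 11, and the highest paclitaxel libraries were those labelled Pac F10, Pac D4 and Pac A6. Short annotated genes of the biotype TEC lie inside Camk2d on the same strand and took at most 15 reads each in a library. Inside Itpr2 and on its strand, Gm15720 and Gm44086 took at most 4 each. Whether such reads came from transcripts of Camk2d or Itpr2 was not tested.

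Camk4 (ENSMUSG00000038128.7, chr18:32934931-33191228), which encodes CaMKIV, was at the edge of detection, with 1 or 2 reads in 5 of 12 DMSO and in 7 of 17 paclitaxel libraries and 0 in the parental library. The Fisher's exact test of libraries with a read gave p = 1.0 (two-sided), and a difference in level was not detectable at this depth. Between the kinases the within-treatment r ran from 0.22 for Camk2d and Camk2g to 0.30 for Camk2a and Camk2g.

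The library labelled Pac F10 was among the 3 highest paclitaxel libraries for 5 of the 8 genes (Itpr2, Atp2a3, Camk2a, Camk2d and Camk2g) and for 30.8% of all genes tested, more of them than any other paclitaxel library. That labelled Pac A6 was among the 3 highest for 4 of the 8 (Itpr1, Itpr2, Atp2a3 and Camk2d) and for 21.01% of all genes. The library labelled Pac E1 held the lowest Itpr1 and Itpr2 levels of the paclitaxel group and the third highest Camk2a level, 11.9 CPM. The parental library lay within the DMSO range for all 10 genes. That range started at 0 for Cacna1e, Camk2a and Camk4, of which the parental library held no read, and the share over all genes was not taken.

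Of 165 other genes of calcium signalling taken by name, 163 were found and 94 passed the filter, and 1 of the 94, or 1.06%, was called by the quasi-likelihood fit of edgeR at an adjusted p under 0.01, against 2.20% of all genes tested. That gene was S100a6, a small calcium-binding protein, which averaged 267 ± 236 CPM in DMSO lines (SD, n = 12) and 41.3 ± 66.5 CPM in paclitaxel lines (SD, n = 17). Its log2 fold change was -2.72 ± 0.63 (SE, adjusted p = 0.0072 in edgeR). The call was lost without any 1 of the libraries labelled DMSO 1, 2, 6, 7, 8 and 10 and Pac A6, B2, C11, D10, E2 and H3. In those 12 fits 1.46% to 2.28% of all genes were called, and why the S100a6 call was lost was not tested. An unadjusted p under 0.05 was reached by 26 of the 94, or 27.7%, near the 25.1% of all genes tested, and the log2 fold change was positive for 72.3% of the 94, with a median of 0.23, and for 56.5% of all genes tested, with a median of 0.07.

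By list, and by the same quasi-likelihood fit at an adjusted p under 0.01, 1 of 25 other voltage-gated channel subunits and related proteins was tested and 0 called. Of the store-operated and other plasma membrane channels 11 of 18 were tested and 0 called, and of the other release channels and pumps 11 of 25 were tested and 0 called. Of the calmodulins and other kinases 7 of 18, of calcineurin and NFAT 10 of 14, of the mitochondrial uptake genes 9 of 11 and of the kinase targets 10 of 12 were tested, and none was called. Of the B-cell receptor steps upstream of calcium release 17 of 20 were tested with none called, and of the calcium-binding and store proteins 18 of 22 with 1 called, S100a6. At an unadjusted p under 0.05 these lists held, in the same order, 1, 2, 3, 1, 3, 2, 1, 5 and 8 genes, where 25.1% of all genes tested reached that p and 2.20% were called.

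The likelihood ratio test of edgeR and DESeq2 each called 7 of the 94 listed genes, or 7.45%, where these tests called 4.74% and 5.22% of all genes tested. 6 genes were called by both, S100a6 among them, and the 8 genes called by either were named here after their values were seen, with log2 fold changes and adjusted p from the quasi-likelihood fit of edgeR. Cacfd1, a protein related to channel subunits, averaged 16.1 ± 12.6 CPM in paclitaxel and 6.73 ± 3.12 CPM in DMSO lines (SD), with a log2 fold change of 1.22 ± 0.33 (SE, adjusted p = 0.020 by edgeR). Orai2, a pore subunit of store-operated entry, had a log2 fold change of 1.02 ± 0.28 (SE, adjusted p = 0.020 by edgeR). Ryr1, a ryanodine receptor that releases calcium from the store, averaged 3.11 ± 1.303 CPM in paclitaxel and 7.00 ± 5.10 CPM in DMSO lines (SD), with a log2 fold change of -1.13 ± 0.31 (SE, adjusted p = 0.022 by edgeR).

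Cd79b, a signalling chain of the B-cell receptor, averaged 1141 ± 399 CPM in paclitaxel and 1777 ± 326 CPM in DMSO lines (SD), with a log2 fold change of -0.64 ± 0.16 (SE, adjusted p = 0.013 by edgeR). S100a10, a relative of S100a6, had a log2 fold change of -0.80 ± 0.20 (SE, adjusted p = 0.013 by edgeR). The likelihood ratio test also called Bank1, an adaptor of B-cell receptor signalling (log2 fold change -0.81 ± 0.23, adjusted p = 0.025 by edgeR), and DESeq2 also called Calm3, a calmodulin gene (0.45 ± 0.13, adjusted p = 0.025 by edgeR). At an adjusted p under 0.05 the quasi-likelihood fit called 9 of the 94, or 9.57%, against 7.55% of all genes. These were the genes named above and Plcg2, a phospholipase C of B-cell receptor signalling. Plcg2 was higher in paclitaxel lines, unlike Cd79b and Bank1 (log2 fold change 0.56 ± 0.17, SE, adjusted p = 0.034 by edgeR).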

How the data were processed

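Messenger RNA of 30 lines was sequenced from transcript 3′ ends with barcodes and molecular identifiers in 2 subpools. The authors aligned the reads with STAR 2.5.1b to GRCm38 (mm10) and deposited raw counts per gene; strand use, collapse of identifiers and which line was in which subpool are not given in the sources used here. Symbols and coordinates come from gencode M21 (54349 of 55401 identifiers matched with version, 55141 without), while the authors counted on M25.

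edgeR 4.0.16 (R 4.3.3) was fitted to the deposited counts of 12 DMSO and 17 paclitaxel libraries with TMM factors, filterByExpr, the quasi-likelihood test and Benjamini-Hochberg adjustment over all genes tested (threshold 0.01); the parental library stayed outside. In simulated counts it recovered 178 of the 185 genes changed 4-fold that passed the filter, among 9329 tested, with 1 false call. Smaller changes and libraries with a wrong label were not simulated, so this does not give the power for the genes described here. Genes under the filter were compared by a two-sided permutation test of the rank sum (100000 draws) and Fisher's exact test (threshold 0.05, unadjusted), with Python 3.11.15 and scipy 1.17.1. SE is the log2 fold change divided by the square root of F, and 95% intervals of fold changes are 1.96 SE each way, with the spread between libraries included. Floors, and the interval of the pooled Cacna1e ratio, cover counting error only. Spreads used log2 CPM with a prior count of 2. Even the most alike pair of libraries gave 5.68 for chi-square averaged across 9342 genes, and all libraries were kept as separate; since reads may hold PCR copies, this value cannot tell repeat preparations of 1 line from separate lines. p-values measure the spread between libraries, 1 a line. Alternatives were DESeq2 1.42.0, the likelihood ratio test, RLE factors, no filter, thinning to 480919 counts, log10 total as covariate and leaving out libraries.

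The 10 genes, the lists and the tests were chosen with earlier results of these data known. Named were all 10 genes, every listed gene past the threshold, and, for a member past it, its 3 most correlated genes (0 members passed). Itpr2 beside Atp2a3, and listed genes called by other tests or at an adjusted p under 0.05, were named after values were seen. Phenotype groups of the lines were not used.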

Additional observations from a re-analysis of the deposited data

How the results depend on the processing

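The count of the 10 genes past the threshold was 0 with all 29 libraries and stayed at 0 with RLE factors, without the filter, with log10 total as covariate, without the libraries labelled DMSO 12 and Pac H9, without all 4 libraries that went against their labels (added after the values were seen; leaving these out by their likeness sets the groups further apart by construction) and when leaving out each library in turn (0 to 0). After thinning it was 0 of the 5 genes still tested, without Camk2a, Camk2g and Itpr3. It was 1 with the likelihood ratio test, with DESeq2 and at an adjusted p under 0.05, in each case Camk2a (log2 fold change 2.42 with the likelihood ratio test and 2.47 with DESeq2). The share of all genes called was 2.20% with all libraries, 2.19% with RLE factors, 1.04% without the filter and 3.20% with log10 total as covariate. It was 3.36% without the libraries labelled DMSO 12 and Pac H9, 5.11% without all 4, 1.46% to 3.15% over leaving out each library and 1.95% after thinning. Where Camk2a was called it was 4.74%, 5.22% and 7.55%, in the order given. With so few genes tested, a count of 0 or 1 says little about them. Over leaving out each library, Camk2a ran from 2.30 to 2.72 with adjusted p from 0.011 to 0.033. Atp2a3 changed sign, to -0.0017 without the library labelled DMSO 5 and to -0.032 without that labelled Pac F10, in a range from -0.032 to 0.15.

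The count of listed genes past the threshold was 1 with all libraries, 7 with the likelihood ratio test, 7 with DESeq2, 2 without the filter, 3 with log10 total as covariate, 3 without the libraries labelled DMSO 12 and Pac H9, 7 without all 4, and 9 at an adjusted p under 0.05, beside a share of all genes called of 2.20%, 4.74%, 5.22%, 1.04%, 3.20%, 3.36%, 5.11% and 7.55% in the same order. Leaving out each library gave 0 to 4, with 4 without the library labelled DMSO 11 (Orai2, Cd79b, S100a6 and S100a10), where 3.15% of all genes were called, the highest share of the 29 such fits, and 0 without each of 12 others, where that share ran from 1.46% to 2.28% and the cause was not tested. The difference in mean Cacna1e level, 1.35 CPM with all libraries, became 1.93 CPM without the libraries labelled DMSO 12 and Pac H9, where the permutation p passed 0.05. No other gene of the 8 changed direction in these fits, but Itpr1 went from 0.51 to 0.23 after thinning (its difference in mean level from 5.92 to 2.25 CPM, and that of Camk2g from 5.38 to 2.93 CPM, both with a rank-sum p above 0.05), and without the library labelled DMSO 11 Itpr3 moved from -0.35 to -0.11 and Camk2d from 0.40 to 0.60. Depth limits Camk4, Cacna1e, Itpr3 and Camk2a, which had at most 87 reads in a library. No paired analysis was possible because paclitaxel lines are named by well and share no replicate number with DMSO lines.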
